A study of Mus musculus with 18 samples.

Results

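Dazl encodes an RNA-binding protein of germ cells. It is 1 of 24968 genes with a probe that passed the filter on dim probes. Its values were read with every non-control array probe named Dazl, 2 of 41174 probes, both among the 36964 kept. The gene was chosen by its higher signal in Dnmt3ab-deficient than in control induced pluripotent stem cells (iPSC), so that difference is given below as a description, with no test.

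RNA from 5 kinds of mouse cells was hybridised in pairs to 18 Agilent 2-colour arrays, which gave 36 channels. The deficient iPSC were clones 8, A6 and B2, labelled as deficient in Dnmt3a and Dnmt3b, the enzymes that place new methyl groups on DNA. Each clone was hybridised against mouse embryonic fibroblasts (MEF) on 1 array, with the clone in the red dye Cy5, and against the V6.5 line of embryonic stem cells (ESC) on another, with the clone in the green dye Cy3. The same 3 clones, in cultures labelled as showing some signs of differentiation, were each hybridised against the 4 control iPSC lines 3, 4, 5 and 6 on the other 12 arrays. The labels name no genotype, treatment or age for the control lines, the MEF or the ESC, and do not say which exons were deleted or how. The iPSC had been kept on a layer of irradiated MEF and moved to gelatin for 1 or 2 passages before RNA was taken. MEF and ESC were each 1 reference RNA, so their own spread was not measured. The deficient iPSC were scanned on 1 day and the differentiating clones and control lines on another, on other slides.

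Dazl protein binds the untranslated ends of germ cell mRNAs and supports their translation during the formation of eggs and sperm. In somatic cells of the mouse the gene is silent and its CpG-rich promoter carries DNA methylation, which is removed in primordial germ cells. The gene therefore often serves as a marker of germline promoters that are silenced by methylation. DNA methylation itself was not analysed here.

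The promoter is shown because it is the element through which methylation is known to act on the gene. Its 250 bases before the RefSeq start lie on the minus strand of GRCm38.p6 at chr17:50293621-50293870 and hold 20 CpG sites, in capitals.
Dazl: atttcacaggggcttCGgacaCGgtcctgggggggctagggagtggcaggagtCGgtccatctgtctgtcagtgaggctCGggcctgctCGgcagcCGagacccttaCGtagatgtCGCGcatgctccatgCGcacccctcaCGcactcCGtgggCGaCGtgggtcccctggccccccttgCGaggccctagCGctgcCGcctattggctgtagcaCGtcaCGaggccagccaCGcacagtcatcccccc
With the 50 bases after the start, the window held 28 CpG sites, a GC content of 68.7% and a ratio of observed to expected CpG of 0.795. Of 32851 RefSeq promoters of that length, 85.8% had fewer CpG sites, and their median was 7. Short motifs were searched on both strands in the same window. A CCAAT box (CCAAT, in 37.4% of all promoters) lay 47 bases before the start on the opposite strand. A cyclic AMP response half-site (ACGTCA, 7.5% of promoters) lay 35 bases before it, and an NRF1 core (GCGCATGC, 2.7% of promoters) 133 bases before it. The letters of an E-box (CACGTG, 7.2%), a GC box (GGGCGG, 35.7%) and an E2F motif (GGCGGGAA, 2.2%) were not in the window. None of the 3 matches overlapped another, and a match is a run of letters, not a bound site.

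Both probes lie on the minus strand of chromosome 17 and carry the RefSeq accession NM_010021 in the array's design. Probe A_51_P246060 is called the upstream probe here because it lies nearer the start of the gene. The design places it between mm7 positions 48435590 and 48435736, a span of 147 bases on the genome, which need not be the length of the probe. Probe A_52_P271166, the downstream probe, covers mm7 positions 48427556 to 48427615, a span of 60 bases. Each had 1 spot per array. The mm7 exon or exons that each probe matches were not looked up, since no annotation of that build was used.

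The targeted genes were checked first, in normalized log2 signal with 1 value per cell line and state, a scale on which 1 unit is a 2-fold change. The brightest of 3 Dnmt3a probes read 11.39, 11.06, 10.42 and 10.86 in control lines 3 to 6. It read 9.03, 9.45 and 9.58 in deficient clones 8, A6 and B2, 9.51, 9.07 and 8.95 in their differentiating cultures, 9.65 in MEF and 11.89 in ESC. All 3 Dnmt3a probes fell in deficient against control iPSC, by 2.48 ± 0.349, 1.20 ± 0.136 and 1.58 ± 0.236 (SE) on the log2 scale, with adjusted p of 0.00042, 0.0001243 and 0.0005797 in limma, a linear model across all probes. Of all tested probes 51.9% passed there, and group coincides with scan day and slide. In differentiating clones against control lines, which share arrays, the same probes differed by -2.72 ± 0.298, -0.90 ± 0.142 and -1.76 ± 0.243 (SE). Their adjusted p from limma were 0.02773, 0.03344 and 0.03006, where 4.62% of probes passed. The Dnmt3b probe read 13.39, 13.77, 14.00 and 12.41 in the control lines, 12.31, 13.24 and 13.49 in the deficient clones and 13.34, 13.16 and 13.18 in the differentiating cultures. It read 7.96 in MEF and 11.93 in ESC, and did not pass the test in deficient against control iPSC (difference -0.38 ± 0.388 (SE), adjusted p from limma = 0.4399). A probe outside a deleted part cannot show the deletion, and the labels do not place it.

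Dazl RNA was low in MEF and in 3 of the 4 control iPSC lines, intermediate in the differentiating clones and in control line 6, and high in the deficient iPSC and the ESC. At the downstream probe the control lines 3, 4, 5 and 6 read 7.85, 8.08, 8.06 and 10.17. The deficient clones 8, A6 and B2 read 11.75, 12.27 and 12.03, and the same clones in differentiating culture read 9.16, 11.03 and 10.71. MEF read 6.84 and ESC 11.67. Every deficient clone therefore read above every control line and above every differentiating culture, while differentiating clone 8 read below control line 6.

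The upstream probe gave the same grouping over a narrower range. Control lines 3, 4, 5 and 6 read 7.62, 7.79, 7.69 and 8.91 there. The deficient clones 8, A6 and B2 read 9.52, 9.87 and 9.66, and in differentiating culture 8.11, 9.19 and 9.06. MEF read 7.45 and ESC 9.42. Over the 12 line-and-state values the 2 Dazl probes had a Pearson correlation of 0.992, and A6 was the highest clone at both probes in both states.

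**Figure D1:**
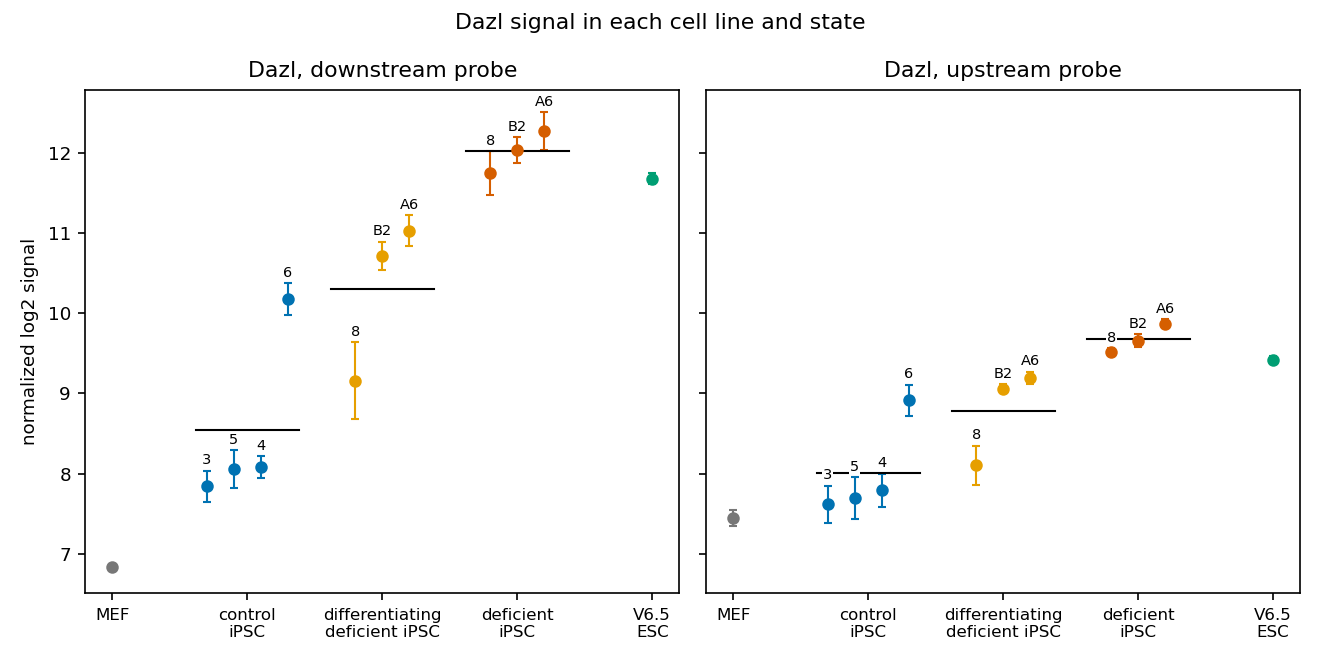
Normalized log2 signal of the downstream and the upstream Dazl probe in each cell line and state. Points are line values labelled by line and horizontal lines are group means. Error bars are the SD over that line's array channels, with no dye correction. Control line 6, at 10.17 and 8.91, stands above the other 3 control lines.

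In the order of the 12 downstream values, some neighbours lay within the spread of their own array channels. Control lines 5 and 4 differed by less than the SD over channels of either line (0.237 and 0.132). The ESC, at 11.67, and deficient clone 8, at 11.75, differed by less than the SD over the clone's 2 channels, 0.269. Differentiating clone 8 had the widest spread among its channels, 0.481 over 4 arrays. All of these SDs are over channels in both dyes, so they include the dye difference, which the line values take out. They are therefore not the error of the line values and do not show that neighbours are equal. Within the array that paired them, deficient clone 8 differed from ESC by -0.26, with no dye correction.

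Before normalization, the downstream spot's signal over local background ranged from 120 to 2012 units in the 12 control channels and from 2444 to 9577 in the 6 deficient channels, which do not overlap. It ranged from 140 to 3114 in the 12 differentiating channels, from 6239 to 6637 in the 3 ESC channels and from 52.1 to 55.4 in the 3 MEF channels. The scanner software called the spot well above background in 2 of the 3 MEF channels and in all others. The MEF level of Dazl is thus close to the limit of measurement at that probe. The upstream probe was well above background in all 36 channels.

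The series compared deficient with control iPSC lines. At the downstream probe the deficient clones averaged 12.02 ± 0.260 (SD, n = 3) and the control lines 8.54 ± 1.09 (SD, n = 4). The difference was 3.48 ± 0.614 (SE), or 11.1-fold, among the values by which the gene was chosen. At the upstream probe the means were 9.68 ± 0.176 and 8.00 ± 0.611, a difference of 1.68 ± 0.352 (SE), or 3.20-fold. Across the array, 51.9% of 36962 tested probes passed an adjusted p of 0.05 in this comparison, 20.5% passed as higher in the deficient clones, and 20.4% had all deficient clones above all control lines. Scan day and slide cannot be told apart from group here. Nor can fewer Dazl-expressing cells be told apart from less Dazl RNA per cell, in this and in every comparison of bulk RNA.

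Control line 6 carried most of the spread among the control lines. It lay 2.18 above the mean of the other 3 control lines at the downstream probe and 1.21 above it at the upstream probe. The same quantity was -0.93, -0.61 and -0.65 for lines 3, 4 and 5 at the downstream probe. Without line 6 the deficient clones exceeded the control lines by 4.02 at the downstream and by 1.98 at the upstream probe. Over all 24968 genes, each read by its brightest probe, 1.27% were at least 1 unit higher in line 6 than in the mean of the others, against 0.012% for lines 3 and 4 and 0.1% for line 5.

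Differentiating clones and control lines shared arrays, so Dazl could be compared within each array. At the downstream probe, clone 8 exceeded control lines 3, 4 and 5 by 1.07, 0.85 and 0.63 and read 0.63 below line 6 (a difference of -0.63). Clone A6 exceeded lines 3, 4, 5 and 6 by 2.82, 2.63, 3.29 and 0.55, and clone B2 exceeded them by 2.49, 2.90, 2.42 and 0.20. Dazl was therefore higher in the clone on 11 of 12 arrays, and the exception paired the lowest clone with the highest control line. The upstream probe also gave 11 of 12 arrays above 0, with a range from -0.61 to 1.64. These within-array differences and their averages below carry no dye correction. Over all arrays Dazl read 0.32 higher in Cy5 than in Cy3 at the downstream probe and 0.13 higher at the upstream probe. The clone was in Cy5 for clone 8 with line 6, A6 with line 5 and B2 with line 4, and otherwise in Cy3. The largest downstream differences of A6 and of B2 were on these Cy5 arrays.

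Averaged by control line, the downstream difference was 2.13, 2.13, 2.11 and 0.0386 for lines 3, 4, 5 and 6, over 3 arrays each. Averaged by clone it was 0.482 for clone 8, 2.32 for A6 and 2.00 for B2, over 4 arrays each, and each clone had a slide of its own. The size of the Dazl difference thus followed both the clone and the control line on the array. At the upstream probe the averages by clone were 0.0750, 1.09 and 0.984.

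**Figure D2:**
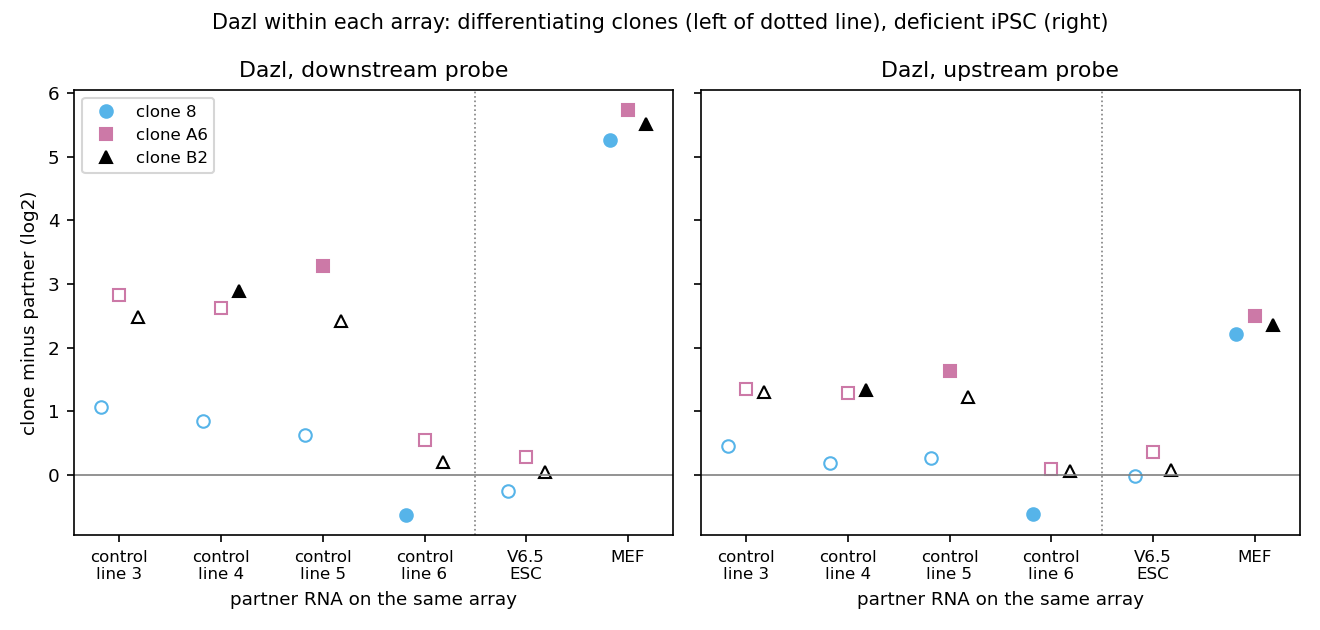
Within-array Dazl difference (log2, clone minus the partner RNA) for the 12 arrays of differentiating clones and the 6 arrays of deficient iPSC, by partner; each point is 1 array, filled where the clone was in Cy5 and open where it was in Cy3. The 3 arrays with control line 6 lie between -0.63 and 0.55 at the downstream probe, below every array of the same clone with another control line.

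Over lines, the differentiating clones averaged 10.30 ± 1.00 (SD, n = 3) at the downstream probe, 1.76 ± 0.698 (SE) or 3.39-fold above the control lines. The 95% interval ran from 0.10 to 3.43, the groups overlapped, and limma's test adjusted over all probes gave p = 0.2048. The upstream difference was 0.78 ± 0.398 (SE), 1.72-fold, with an adjusted p from limma of 0.3261. Neither Dazl probe passed the adjusted threshold and 1 of 2 had an unadjusted p under 0.05 in limma, where 4.62% of 36962 probes passed in either direction and 2.15% as higher. The test depends on line 6. Without it the downstream difference was 2.31 with an adjusted p from limma of 0.02788, and the upstream one was 1.09 with an adjusted p of 0.05188. The number of probes called over the whole array also rose without line 6 (counts in the last section). The downstream pass therefore does not set Dazl apart from the array. These control lines are the ones through which the gene was chosen.

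The same 3 clones were measured in both states, which allowed a test with the clone as a block. Dazl was lower in the differentiating state of every clone. At the downstream probe the deficient iPSC exceeded the differentiating cultures by 1.72 ± 0.298 (SE), or 3.28-fold, with a 95% interval of 0.92 to 2.51 and an adjusted p from limma of 0.01129. At the upstream probe the difference was 0.90 ± 0.180 (SE), or 1.86-fold, with an adjusted p of 0.01647. Both Dazl probes passed, as did 53.9% of 36962 probes in either direction and 22.6% as higher, and 25.6% had every deficient clone above every differentiating culture, so passing did not set Dazl apart from the array. The gene was chosen for its high values in these same deficient iPSC, a choice that favours a positive difference here, so the test is not independent of it. The states were scanned on different days and slides, and state and scan day cannot be told apart. Without clone A6 the differences were 1.95 and 1.01 but the adjusted p rose to 0.05122 and 0.06851.

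Clones varied more in the differentiating state than in the deficient state. The downstream values of the 3 clones spanned 1.87 in differentiating culture and 0.519 in the deficient iPSC, and the upstream values 1.08 and 0.349. Clone 8 was the lowest in both states at both probes. At the downstream probe it lay 1.71 below the mean of the other differentiating clones (-1.71) and 0.40 below that of the other deficient clones (-0.40). The difference in spread was not tested.

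The ESC read near the deficient iPSC at both Dazl probes. Within the 3 arrays that paired them, clones 8, A6 and B2 differed from ESC by -0.26, 0.28 and 0.04 at the downstream probe and by -0.02, 0.35 and 0.07 at the upstream probe. The mean within-array differences, which carry no dye correction, were 0.02 ± 0.119 (SE) with a 95% interval of -0.26 to 0.31, and 0.13 ± 0.0836 (SE) with an interval of -0.06 to 0.33. Neither probe passed limma's test (adjusted p = 0.9188 and 0.2819) and 0 of 2 had an unadjusted p under 0.05, while 28.9% of 36964 probes passed. The clone was in Cy3 on all 3 arrays, and over all 18 arrays the Dazl dye term, Cy5 over Cy3, was 0.32 at the downstream and 0.13 at the upstream probe. The line values, which take that term out, put the deficient iPSC above ESC by 0.34 and 0.26, and the downstream 0.34 lies outside the within-array interval. The intervals hold only the spread over clones, so they do not bound the difference from this ESC RNA and do not show that the levels are equal.

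Against MEF, the deficient clones 8, A6 and B2 were higher by 5.26, 5.74 and 5.51 at the downstream probe and by 2.22, 2.49 and 2.36 at the upstream probe. The mean within-array differences were 5.50 ± 0.119 (SE) and 2.36 ± 0.0836 (SE), with adjusted p from limma of 5.247e-08 and 4.225e-07. Both Dazl probes passed, as did 64.2% of 36964 probes in either direction and 32.1% as higher. The clone was in Cy5 on every MEF array, and these differences carry the dye term. The line values, without it, differed by 5.18 and 2.23. The size at the downstream probe also depends on how background is corrected, since MEF was well above background there on only 2 of 3 arrays. With a normexp offset of 16 in place of 50 the within-array difference was 6.11, and with the scanner software's processed signals 7.32. No fold is therefore given for it. By line values ESC exceeded MEF by 4.84 at the downstream and by 1.97 at the upstream probe. Dazl was thus high in both pluripotent RNAs of these arrays and low in the MEF, where the downstream signal was near background and the upstream signal above it.

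Control line 6, with the most Dazl signal of the control lines, had the least Dnmt3b signal of them. It also had the least Dnmt1 and the most Dnmt3l signal, and lay between other control lines at the brightest Dnmt3a probe. The part of these genes in the Dazl level of line 6 was not tested. Dnmt3l and Dnmt1 were higher in the deficient iPSC. Dnmt3l, a cofactor of Dnmt3a and Dnmt3b without enzyme activity, rose by 1.54 ± 0.246 (SE) in deficient against control iPSC and by 1.15 ± 0.230 in the differentiating clones, with adjusted p from limma of 0.0008572 and 0.04544. Dnmt1, which copies methylation at replication, rose by 0.59 ± 0.0950 (SE) in the deficient iPSC (adjusted p = 0.0008796). Dnmt1 differed by 0.22 ± 0.107 in the differentiating clones, which did not pass (adjusted p = 0.3062).

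A list of 25 genes that repress germline promoters or act in DNA methylation, the Dnmt genes included, was read beside Dazl. In deficient against control iPSC 9 rose, 5 fell and 11 did not pass, where 17% of 24968 genes rose and 34.9% fell. Max, a partner of the E-box binding repressor Mga, rose by 1.01 ± 0.119 (SE) and Uhrf1, which brings Dnmt1 to half-methylated sites, by 0.96 ± 0.125 (adjusted p from limma 0.0001546 and 0.0002711). In the differentiating clones 1 rose, 2 fell and 22 did not pass, where 2.27% of genes rose and 2.48% fell. Against ESC 13 rose and 4 fell, where 13% of genes rose and 16% fell.

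Of 40 other germline genes listed as sensitive to methylation, 38 were measured. In deficient against control iPSC 23 rose, 4 fell and 11 did not pass, with a median difference of 1.03 against -0.08 for all genes, of which 17% rose and 34.9% fell. Both Dazl probes lay above that median, and the downstream probe above every listed gene. Dazl was chosen by this difference, which favours a high place, so its place is a description. Hormad1, a protein of meiotic chromosome axes, rose by 2.92 ± 0.629 (SE), Stra8, which acts at entry to meiosis, by 2.74 ± 0.842, and the meiotic cohesin Smc1b by 2.62 ± 0.671 (adjusted p from limma 0.0043, 0.0228 and 0.0101). Tdrd1, a tudor protein of the germline, fell by 1.19 (difference -1.19 ± 0.164 (SE), adjusted p = 0.0003618), so the listed genes did not all move as Dazl did.

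Within the other comparisons the listed genes resembled Dazl in part. In the differentiating clones 3 rose (Fkbp6, Stag3 and Piwil2), 1 fell (Tdrd1) and 34 did not pass, with a median of 0.36 against 0.00 for all genes, of which 2.27% rose and 2.48% fell. Deficient iPSC exceeded differentiating clones in 20 and were below them in 2, with a median of 0.54 against -0.09, where 19.2% of genes rose and 35.3% fell. Against ESC 12 rose and 8 fell around a median of 0.04, where 13% of genes rose and 16% fell, while neither Dazl probe passed. Against MEF 33 rose and 2 fell, with a median of 2.74, where 32.6% rose and 30.2% fell. Without control line 6 the count higher in differentiating clones was 16 in place of 3. It was 0 without control line 3 or 4, or without clone A6 or B2, and 5 without clone 8. Probes called over the whole array also rose in number without control line 6. They too were 0 without control line 3 or 4, or without clone A6 or B2. A rise and a fall to 0 are thus not particular to the list.

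**Figure D3:**
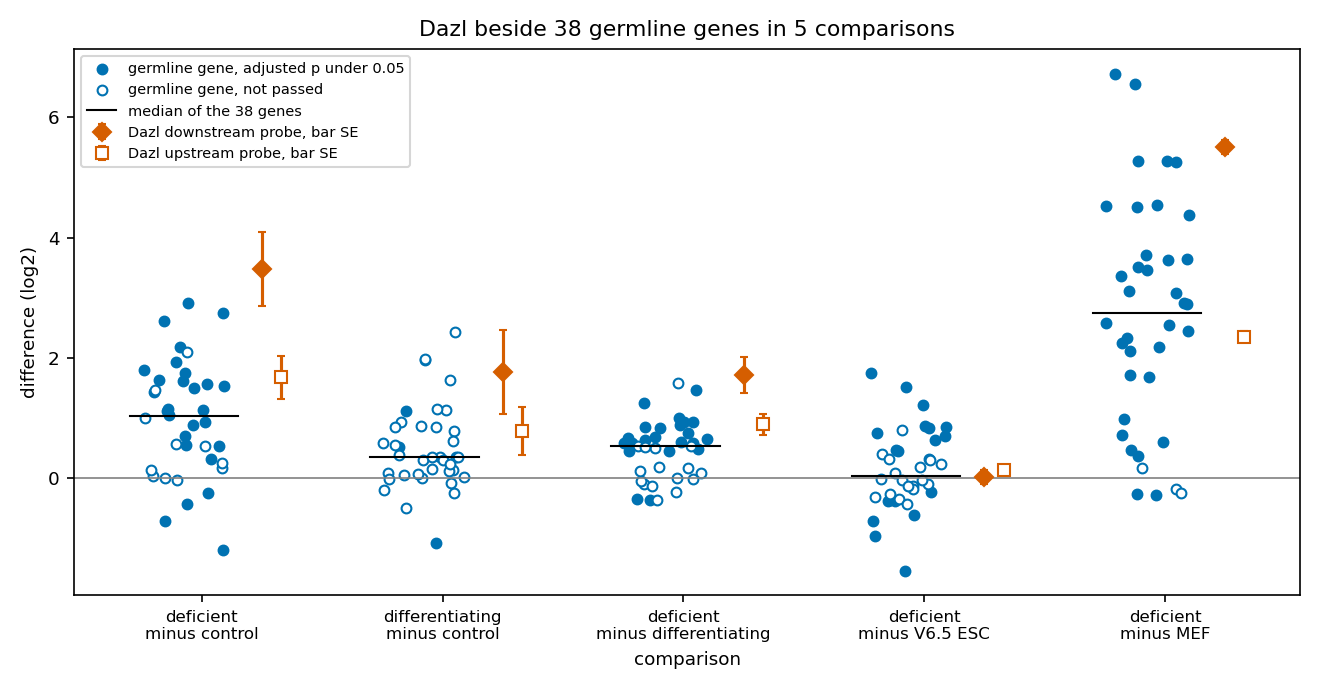
Log2 difference of 38 listed germline genes (blue, filled where limma's adjusted p was under 0.05) and of both Dazl probes (orange, bars SE) in 5 comparisons, with the list's median as a line. The downstream Dazl probe lies above every listed gene in deficient minus control, at 3.48, the comparison by which Dazl was chosen. It lies near 0 in deficient minus ESC, at 0.02, and the comparisons share samples.

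In line 6 the listed germline genes stood apart as well as Dazl. Of the 38 genes, 13 (34.2%) were at least 1 unit higher in line 6 than in the mean of the other control lines, and 0 were for each of lines 3, 4 and 5. For example, Stra8 read 12.26, 11.47, 10.72 and 14.39 in control lines 3, 4, 5 and 6. Hormad1 read 7.88, 8.20, 8.43 and 10.38 in them. Ddx4, a helicase of germ cells and an mRNA bound by Dazl, read 12.06, 11.98, 11.91 and 11.90, with no rise in line 6.

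Germ cell specification genes moved in both directions. In deficient against control iPSC 3 of the 15 measured genes rose and 3 fell, while 9 missed the threshold. Over all genes 17% rose and 34.9% fell, so the count that rose was close to the array's share and the count that fell was below it. Kit, a receptor of germ cells, rose by 0.70 ± 0.192 (SE) and Prdm1, a repressor that directs germ cell fate, by 0.64 ± 0.239 (adjusted p from limma 0.0137 and 0.0482). Of the 3 that fell, Nanos3 had the largest difference (-0.38 ± 0.0533 (SE), adjusted p from limma 0.0004124). In the differentiating clones Kit alone of the 15 passed limma's test, at 0.40 ± 0.0726 (SE, adjusted p = 0.0385). Over all genes 2.27% rose and 2.48% fell there, so 1 such gene does not set the list apart.

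The DAZ family, the partners of Dazl protein and mRNAs it is known to bind gave 12 genes reported here, all measured. In deficient against control iPSC 1 rose, 4 fell and 7 did not pass. With 17% of all genes higher and 34.9% lower, these counts were close to the array's shares and do not set the list apart. Dzip1l, a relative of the DAZ-interacting protein Dzip1, rose by 0.16 ± 0.0519 (SE). Boll, a second DAZ family member, fell (-0.37 ± 0.123), as did the DAZ-associated proteins Dazap1 (-0.38 ± 0.0763) and Dazap2 (-0.29 ± 0.0959) and Sycp3 (-0.71 ± 0.264), a meiotic chromosome protein whose mRNA Dazl binds. The adjusted p of these 5 genes lay between 0.003052 and 0.04772. Tex19.1, a germ cell gene whose mRNA Dazl binds, differed by 1.01 ± 0.567 (SE) and Ddx4 by 0.25 ± 0.107, neither of which passed limma's test (adjusted p = 0.1653 and 0.07498). Dzip3, Pabpc1, Dynll1, Dzip1 and Pum2 differed by between -0.14 and 0.40 and did not pass either.

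In the differentiating clones against control iPSC none of these 12 passed limma's adjusted test, while 4 had an unadjusted p under 0.05. Over all genes 2.27% rose and 2.48% fell after adjustment, and the share with an unadjusted p under 0.05 was not computed. Deficient iPSC exceeded differentiating clones in 4 (Pabpc1, Dynll1, Tex19.1 and Ddx4) and were below them in 2 (Dazap1 and Dzip1). In that comparison 19.2% of all genes were higher and 35.3% lower. Among control lines 3, 4, 5 and 6 the Tex19.1 signal read 13.21, 13.38, 13.04 and 15.69, and line 6 was the highest as it was for Dazl. Boll read between 7.55 and 8.39 in all 10 iPSC lines and states, 7.78 in ESC and 6.83 in MEF.

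Genes with the pattern most like Dazl were found by Pearson correlation with the downstream probe over the 12 line-and-state values, among 8342 genes whose values spanned at least 1 unit. The 12 values share arrays, clones and control lines, so the coefficients are a description. The 10 highest were Hormad2 (0.985), Muc3 (0.979), Rec114 (0.979), Efhb (0.968), Mageb4 (0.966), Slc1a1 (0.963), Slc25a31 (0.963), Rpl3l (0.962), Mlana (0.961) and Tex101 (0.961). The median coefficient over the 8342 genes was -0.01 and 1.03% exceeded 0.9. Hormad2 and Rec114 act on meiotic chromosomes, Slc25a31 is an ADP/ATP carrier of the testis and Tex101 a surface protein of sperm precursors.

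Hormad2 followed Dazl from line to line. It read 7.34, 7.39, 7.59 and 8.55 in control lines 3 to 6. The deficient clones 8, A6 and B2 read 9.32, 9.47 and 9.79, the same clones in differentiating culture 8.37, 9.00 and 9.18, MEF 6.69 and ESC 9.37. Unlike Dazl, it was highest in clone B2 in both states. Of 32 listed germline genes that spanned at least 1 unit, 9 had coefficients over 0.9 and 23 did not. Beside Hormad2, Slc25a31 and Tex101, the 9 were Piwil4 (0.959), Hormad1 (0.954), Tex11 (0.949), Stra8 (0.945), Stk31 (0.944) and Sohlh2 (0.923). The lowest were Sycp3 (0.409), Mei1 (0.186) and Tdrd1 (-0.43).

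**Figure D4:**
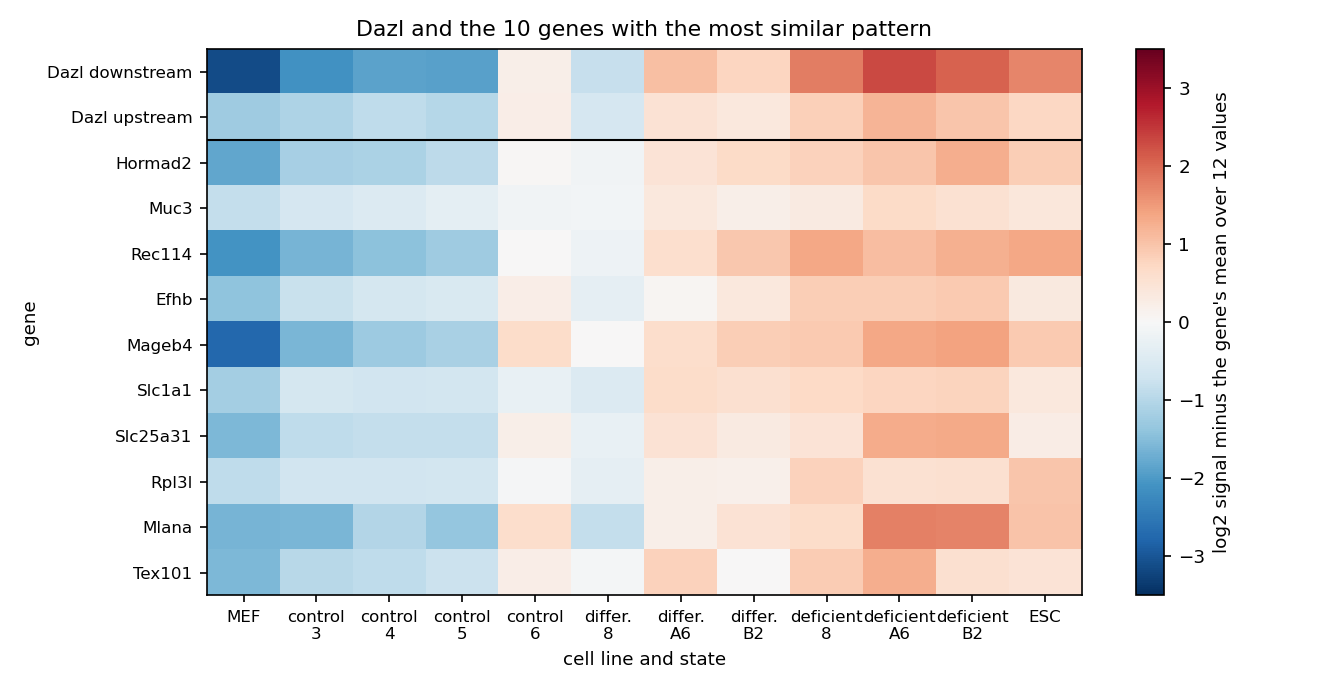
Log2 signal of both Dazl probes and of the 10 genes most like the downstream probe, each minus its mean over the 12 cell line and state values (columns). Control lines 3 to 5 and MEF are low, and control line 6 (Dazl 10.17) and differentiating clone 8 (9.16) lie between them and the deficient clones; the genes were chosen for this likeness.

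The 7 values of control lines and differentiating clones, which share slides and a scan day, were also searched, over 2067 genes that spanned 1 unit. Slc25a31 (0.998), Mmrn2 (0.997), Htatip2 (0.989), Efhc2 (0.989) and Nlrp4c (0.988) were most like Dazl, and 6.1% of genes exceeded 0.9. Mmrn2, which encodes a protein of the vessel wall, read 8.99, 9.01, 8.97 and 11.44 in control lines 3, 4, 5 and 6 and 10.13, 12.19 and 11.78 in differentiating clones 8, A6 and B2. Slc25a31 stood in both groups of genes. Efhc2 read 10.55, 11.62 and 12.24 in the deficient clones but 8.20 in ESC, where Dazl was high.

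The promoters of 8 of the 10 genes most like Dazl were in the RefSeq table and held 3 to 32 CpG sites in the same 300-base window, with a median of 14. The promoters of 35 listed germline genes held 8 to 38 with a median of 18, and those of all 27025 genes had a median of 8. Dazl, with 28, lay above each of these medians.

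In deficient against control iPSC the genes next to Dazl on chromosome 17 gave smaller differences than Dazl. In the RefSeq gene table the nearest protein-coding genes on one side were Rftn1 and then Kif6, and on the other Plcl2 and then Tbc1d5. Rftn1, a lipid raft protein, rose by 0.39 ± 0.106 (SE) in deficient against control iPSC (adjusted p from limma 0.01315). Plcl2 and Tbc1d5 differed by -0.48 ± 0.266 and -0.23 ± 0.173 and did not pass (adjusted p = 0.1583 and 0.2903). Kif6 gave no value here. Against MEF the difference of Rftn1 was -2.45, as large as that of the upstream Dazl probe but opposite in sign. Against ESC Plcl2 (-0.47) and Tbc1d5 (-0.26) passed limma's test (adjusted p = 0.0011 and 0.02618), where neither Dazl probe did. At their brightest probes these 3 neighbours read lower in control line 6 than in lines 3 to 5, opposite to Dazl. Dimmer probes of the same genes did not all do so. One Tbc1d5 probe read 7.66, 7.68, 7.60 and 7.72 in lines 3, 4, 5 and 6, and a Rftn1 probe 6.22, 6.22, 6.18 and 6.21.

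Markers of other cells moved with the same groups. The mean log2 signal of 12 fibroblast markers was 10.67 to 10.75 in deficient clones, 10.77 to 11.34 in differentiating clones, 11.32 to 12.06 in control lines, 10.52 in ESC and 14.84 in MEF. In deficient against control iPSC 9 of the 12 fell, 1 rose and 2 did not pass, where 34.9% of all genes fell and 17% rose, and line 6 had the lowest mean of the control lines. The mean of 11 endoderm markers was 8.25 to 9.83 in deficient clones, 10.05 to 10.83 in differentiating clones and 8.08 to 9.13 in control lines. In differentiating clones against control lines 7 of the 11 rose, where 2.27% of all genes did. In deficient iPSC against differentiating clones 10 of the 11 were lower, where 35.3% of genes were. Clone 8, which had the least Dazl, had the highest mean in both states, 9.83 and 10.83. Of 11 pluripotency markers 8 rose in deficient against control iPSC, with means of 13.50 to 13.82 against 12.76 to 13.25. Their mean was 12.77 to 13.00 in the differentiating clones, and in deficient iPSC against these 9 of the 11 were higher and 0 lower, where 19.2% of genes were higher. Their mean was 14.19 in ESC and 9.67 in MEF. An array signal of this kind has a floor above 0 and cannot show that a marker was absent. The part these cells have in the Dazl differences was not tested.

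Genes of the sex chromosomes were looked at after the Dazl values were seen, and the Y-linked ones also divided the lines. Eif2s3y read 12.26, 11.58, 12.79 and 7.54 in control lines 3, 4, 5 and 6. It read 12.48, 7.50 and 7.56 in deficient clones 8, A6 and B2, 12.45, 7.70 and 7.51 in the differentiating cultures, 6.46 in MEF and 11.54 in ESC. Within each of the 3 iPSC groups, the lines with low Eif2s3y (6, A6 and B2) had more Dazl signal than the lines with high Eif2s3y. ESC combined high Eif2s3y with high Dazl, and MEF low with low. The Y-linked genes Ddx3y, Uty and Kdm5d were also lower in 6, A6 and B2 than in the other lines of each iPSC group. The X-linked gene Xist did not divide the lines in this way. It read 8.29, 8.34, 8.34 and 8.38 in control lines 3, 4, 5 and 6, 8.21, 8.27 and 8.27 in deficient clones 8, A6 and B2, and 9.00 in MEF. The part of this division of the lines in the Dazl level was not tested.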

How the data were processed

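RNA was measured on 18 arrays (36 channels). The intensity values (mean spot signal and local background) were deposited as made by Feature Extraction 10.1.1.1, per the file headers. The log2 ratio table that the authors deposited names limma in the submitters' processing notes. Its ratios had correlations of 0.982 to 0.999 with those computed here (slopes 1.01 to 1.03, medians -0.0106 to 0.0071), clone over partner. The authors' centring is not given in the sources used here. The scanner's deposited flags mark outlier and dim spots.

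Background was corrected with normexp (offset 50). Local background exceeded the signal by over 20 units at 59 spots on 8 arrays. These were kept out of the fit, a choice made after seeing the data. Arrays were normalized by loess and Aquantile. The filter on dim probes took the share of channels well above background separately for each of the 5 kinds of RNA. A probe was dropped only where every kind had a share under 0.5. A probe bright in MEF alone could therefore be kept. A separate-channel fit (intraspot correlation 0.843, every 10th probe) with a dye term gave 1 value per line and state (n = 12). Probes were tested with limma 3.58.1 in R 4.3.3 on lines, with Benjamini-Hochberg adjustment over all kept probes at 0.05. For deficient against control iPSC the spread was shared with the differentiating cultures of the same clones, with no clone term. Scan day 1 had 2 slides and scan day 2 had 3. Of non-control spots, 69.69% to 78.87% were well above background on day 1 and 75.58% to 92.55% on day 2, and 0 were saturated. The number of arrays limits precision. Scripts were tested on simulated data.

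Named genes were each Dazl probe, the Dnmt genes, the DAZ family list, the next 2 protein-coding genes on each side, the 10 and 5 genes most correlated with Dazl over 12 and 7 values, and up to 4 members of each other list by size of difference. A list member was read by its brightest probe. Probes were named through the RefSeq table by accession (22106 probes), symbol (5737) or synonym (2697), or kept the file's name (6424). The members and lists were chosen with earlier results of these data known. One gene of the DAZ family list is not reported here and stays out of its counts. No label says that clones or lines came from separate animals, so p-values measure the spread between these lines. Clones deviated together across states (correlations 0.351, 0.361 and 0.331 for clones 8, A6 and B2), and the clone is the pairing. Alternatives were other background corrections, normalizations and filters, each line left out, slide as a block, single dyes and the deposited ratios.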

Additional observations from a re-analysis of the deposited data

Results flagged for a closer look

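The 25 sets of values examined included, for each Dazl probe, a set of the deficient arrays, which holds no control line. In 9 of the other sets control line 6 lay apart from the other 3 control lines. The test was of its gap relative to the range of the 4 lines. Chance marks about 1 in 20 such sets, and genes chosen for likeness to Dazl are not independent sets. Line 6 read 8.91 at the upstream and 10.17 at the downstream Dazl probe. Among the genes most like Dazl it read 7.64 for Slc1a1, 8.96 for Slc25a31, 7.66 for Rpl3l, 11.44 for Mmrn2, 11.95 for Htatip2 and 10.55 for Efhc2, each the highest of the control lines. For the brightest probe of Tbc1d5, a neighbour of Dazl on chromosome 17, it read 9.23, the lowest of them.

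The excess of Dazl over the same control lines differed between the deficient iPSC and their differentiating cultures by 0.90 at the upstream and 1.72 at the downstream probe. This was the test of the difference itself, with the clone as a block (adjusted p from limma 0.01647 and 0.01129, higher in 3 of 3 clones at each probe). Dazl was chosen for its values in these deficient iPSC, so the test is not independent of the choice. The states were scanned on different days.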

How the results depend on the processing

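Of 134 alternative values for the 2 Dazl probes over 5 comparisons, 124 counted as unchanged and 2 reversed. Unchanged meant the same direction and the same call. Deficient minus control had no call, so there it meant the same direction and a shift under the pooled SD of the lines. That SD, which includes control line 6, was 0.863 at the downstream and 0.486 at the upstream probe. All 16 alternatives of each probe met this wider rule. The reversed ones were the downstream difference from ESC, at -0.041 with the scanner's processed signals (adjusted p from limma 0.8414) and -0.11 without clone A6, against 0.02. The downstream difference between differentiating clones and control lines passed without control line 6 (2.31) and on arrays with the control line in Cy5 (1.52, adjusted p 0.03651). It also passed from within-array ratios with clone and line terms (1.60, upstream 0.72) and from the authors' deposited ratios (1.64, upstream 0.76), whose adjusted p, down to 3.096e-06, treat arrays that reuse lines as separate. With slide as a block it was 1.60 (adjusted p 0.07678). Over all its alternatives the adjusted p ran from 3.096e-06 to 0.5228. Leaving out 1 line at a time gave downstream differences of 3.24 to 4.02 (deficient minus control), 1.40 to 2.33 (differentiating minus control), 1.28 to 1.95 (deficient minus differentiating), -0.11 to 0.16 (ESC) and 5.38 to 5.62 (MEF). The upstream ranges were 1.55 to 1.98, 0.58 to 1.12, 0.64 to 1.05, 0.03 to 0.21 and 2.29 to 2.43. The array replicate number as a block gave 3.44 and 1.67 for deficient minus control, and leaving out the clone, the replicate block of the reported fit, deficient minus differentiating was 1.72 and 0.90 (adjusted p from limma 0.02706 and 0.04225). The 1706 probes called between differentiating clones and control lines became 5169 without control line 6 and 0 without control line 3 or 4 or without clone A6 or B2. Without normalization between arrays 62% of the probes called in deficient minus control were higher, against 39.38%, and 64.04% against 41.94% in deficient minus differentiating, with the median of all probes at 0.10 against -0.04 in the former. With normexp fitted over all spots 3176 probes were called against ESC in place of 10665, 73.8% of them higher in place of 46.57%. The error of the dye term is shared by lines of a group and is not in the p-values. The 3 ESC arrays had ratios correlated at 0.646 to 0.886, so they are not independent of the common ESC RNA.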
